A study of Rattus norvegicus with 56 samples.

Results

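Liver RNA of female rats raised on a high-fat, high-fructose diet (HFhf) was set against that of female rats raised on regular chow (CON), both sampled at ZT4, that is 4 h after lights on in a cycle of 12 h of light and 12 h of dark. The labels for sex, collection time and study group pick out 6 of the 56 libraries of the series, 3 HFhf and 3 CON. All animals were Sprague-Dawley offspring whose livers were taken at day 180. HFhf dams were moved at gestation day 11 to a Western diet without restriction and to drinking water with 25% fructose, and the HFhf regime went on through the offspring's life. CON dams and offspring ate chow from start to finish, and the dams of neither group were calorie restricted. Exposure before and after birth came together in HFhf, so their parts cannot be told apart. The labels name no litter or cage and so do not say whether livers of a group came from 1 dam or several. The p-values rest on the spread between livers of the same group, estimated over all 56 libraries and not from these 6 alone. Values are also given for HFhf and CON males at ZT4 (3 libraries each), for HFhf and CON animals at ZT16 (4 and 3 libraries in each sex), and for 4 IUGR-HFhf females at ZT4, born to dams held to a 50% calorie restriction from gestation day 10 and placed on the HFhf diet after birth.

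The organism label reads rat while the tissue label reads mouse liver, and the submitters' processing notes name the rat build rn6. Albumin, the main product of hepatocytes, took 210000, 227000 and 263500 CPM in the HFhf livers, against 166900, 155600 and 164900 CPM in the CON livers. CPM here is a gene's reads over the library's counted reads times its TMM scaling factor, which was 0.964, 0.963 and 0.883 in the HFhf livers, against 1.03, 1.05 and 1.04 in the CON livers, so that scaling raised the CPM of the HFhf livers and lowered those of the CON livers. Eif2s3y, a gene of the Y chromosome, had 0 to 1 reads in each of the 28 female libraries and 179 to 1946 in the 28 male ones. Depth went with the diet here: the HFhf livers had 8.24, 5.94 and 8.68 M (mega) counted reads, against 18.7, 16.2 and 17.2 M in the CON livers. The 10 most abundant genes took 34.3%, 35.1% and 38.7% of the reads of the HFhf livers, against 30.2%, 30.6% and 31.3% in the CON livers. With the HFhf and CON livers thinned to the shallowest of them, and the rest of the series left at full depth, 84 of the 128 genes reported below were again called.

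The liver makes cholesterol from acetyl-CoA through the mevalonate pathway, whose enzymes are transcribed under the factor SREBP2 when sterols in the endoplasmic reticulum (ER) run low and are switched down when they are plentiful. Fatty acids arriving at the liver are burned in mitochondria and peroxisomes by enzymes under PPARA, a nuclear receptor for fatty acids, or stored and exported as triglyceride. Fructose is cleared mostly by the liver, where it feeds both lipid synthesis and glucose output. ZT4 lies in the rest phase of the rat, when little food is eaten.

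Of 11047 genes with enough reads to test, 63 were higher and 65 lower in HFhf livers at an adjusted p under 0.05 (edgeR's quasi-likelihood test with Benjamini-Hochberg adjustment). That is 1.16% of the genes tested, 0.57% higher and 0.588% lower, and this share is the background for every count below. The median log2 fold change over all tested genes was -0.00131, and the CPM of the groups did not overlap for 21.3% of them, with HFhf above CON in 10.1% and below in 11.2%. Among the called genes only Dnajb11 had groups that overlapped. Groups lying apart in a called gene therefore describe its values and add no evidence to the call. Without any scaling beyond library size the calls shifted to 23 higher and 143 lower, with an all-gene median of -0.15. In the authors' deposited table for this comparison, 44 genes were listed as higher and 51 as lower, none with a log2 fold change smaller in size than 1.03; of the edgeR calls, 25 higher and 36 lower reach a size of 1. Its lists share 25 higher genes with the edgeR calls, which is 56.8% of the authors' and 39.7% of edgeR's, and 35 lower genes, which is 68.6% of the authors' and 53.8% of edgeR's, with 0 in opposite directions. By adjusted p alone the authors' deposited table has 112 higher and 99 lower genes, which include all 63 and all 65. The number of calls changed when single livers were left out. It was 42 without HFhf liver 1, 105 without HFhf liver 2 and 32 without HFhf liver 3. It was 39 without CON liver 1, 59 without CON liver 2 and 60 without CON liver 3. The 16 genes called whichever liver was left out were Abhd3, Vsx1, Myrip, Pycrl, Adam15, Clcn4, Hmgcs1, Dhcr7, Hsd17b7, Gstm2, Gstm7, Tmprss2, Rcan2, Esr1, Dusp15 and Mab21l3; every other gene called lost its call without at least 1 liver. In whole liver, fewer cells of a type and less RNA per cell cannot be told apart.

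**Figure D1:**
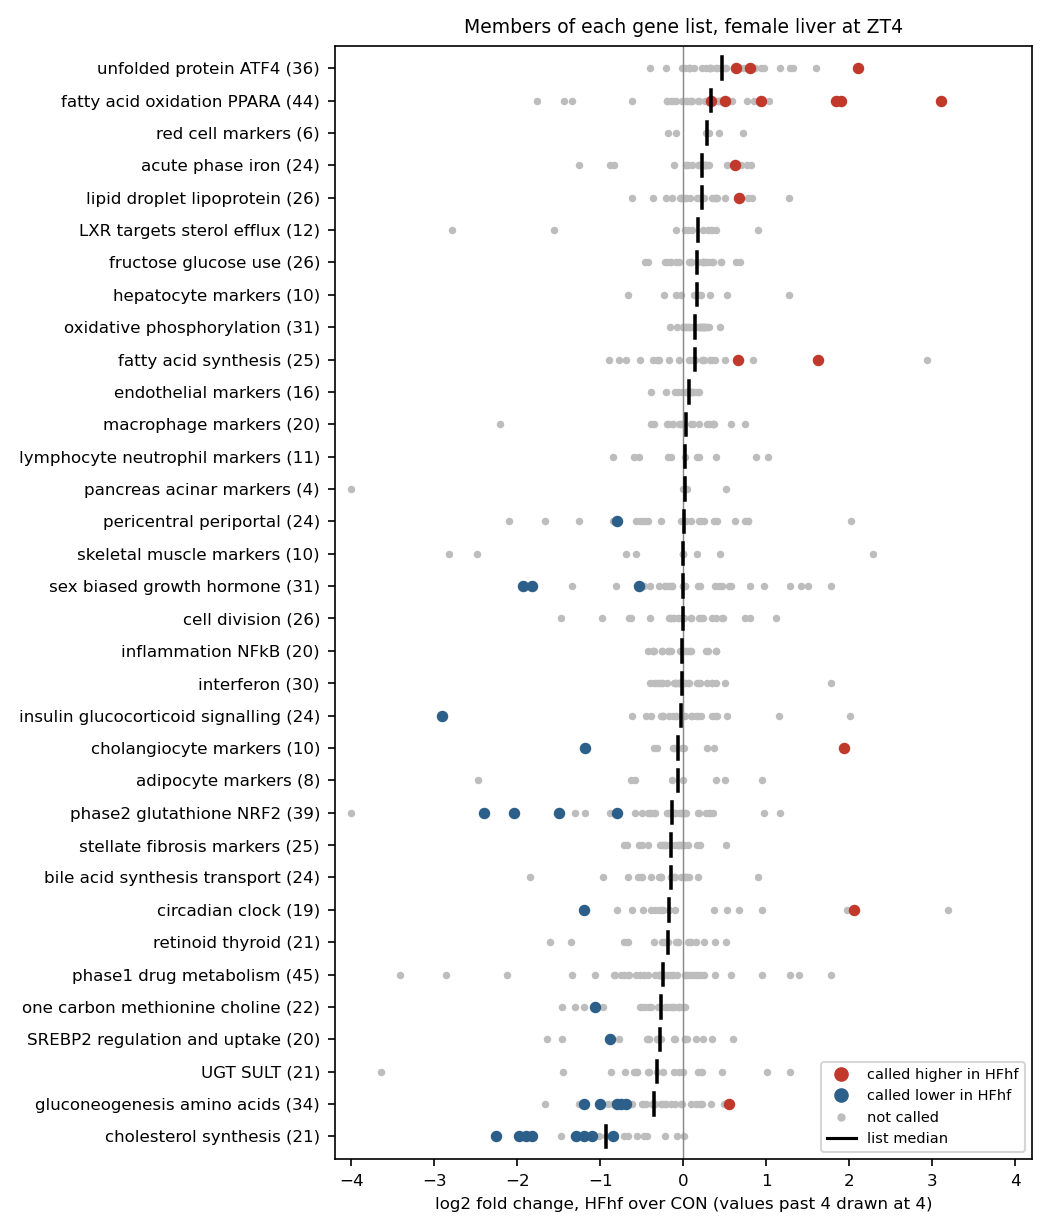
Fitted log2 fold change (HFhf over CON, female livers at ZT4) of each tested member of 34 gene lists, 1 point a gene, with genes called higher in red, genes called lower in blue and the list's median as a black bar; values past 4 are drawn at 4. Members of cholesterol synthesis lie mostly below 0 and include 8 blue points, while members of fatty acid oxidation and of the unfolded protein response lie mostly above 0 and include 6 and 3 red points.

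Genes of cholesterol synthesis fell in HFhf livers at steps from the start of the pathway to its end. Of 21 enzymes tested, 8 fell, 0 rose and 20 had a negative fold change, with a median of -0.93 beside -0.00131 for all genes; 15 were lower at an unadjusted p under 0.05, which 11.3% of all genes passed in either direction, and DESeq2 called 10 lower and 0 higher. Hmgcs1, the synthase that makes HMG-CoA, had 126, 183.9 and 174 CPM in HFhf livers, against 446.2, 899.3 and 369 CPM in CON livers. Its log2 fold change was -1.83 (adjusted p = 0.00266), and every CON liver was above every HFhf liver. Idi1, which isomerises isopentenyl diphosphate, had 8.68, 19.4 and 9.79 CPM in HFhf livers, against 50.3, 87.6 and 39.9 CPM in CON livers (log2 fold change -2.25). Sqle, the squalene epoxidase, had 10.2, 18.4 and 16.2 CPM in HFhf livers, against 59.6, 76.7 and 38.7 CPM in CON livers (log2 fold change -1.98). In both genes CON liver 2 was the highest of the 6, as it was for Hmgcs1. Mvk, the mevalonate kinase, fell by 0.85 and Cyp51, the lanosterol demethylase, by 1.20 on the log2 scale, with adjusted p of 0.0140 and 0.0415 in edgeR's test, and Cyp51 was not called in a fit with the run of title numbers (the stretch of numbers in which a library's title falls) as a covariate.

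The late steps that turn lanosterol into cholesterol included the falls of Cyp51, Hsd17b7 and Dhcr7. Dhcr7, which makes cholesterol from 7-dehydrocholesterol, had 95.4, 106.6 and 103.5 CPM in HFhf livers, against 269.4, 261.4 and 215.8 CPM in CON livers. It fell by 1.29 on the log2 scale (SE 0.23, adjusted p = 0.00228). Hsd17b7, a sterol ketoreductase of the same stretch, had 4.15, 5.07 and 3.26 CPM in HFhf livers, against 15.3, 15.9 and 14.7 CPM in CON livers (log2 fold change -1.89, adjusted p = 0.00266). Both had every HFhf liver below every CON liver and were called under all 15 alternative analyses run. Fdft1, the squalene synthase, and Msmo1, a methylsterol oxidase, had log2 fold changes of -0.93 and -1.48 with adjusted p of 0.0583 and 0.0588; DESeq2 called both lower. Fdps, the farnesyl diphosphate synthase, had a log2 fold change of -0.07. The list's count of calls was 4 without HFhf liver 1, without HFhf liver 3 or without CON liver 2, and 5 without CON liver 1.

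**Figure D2:**
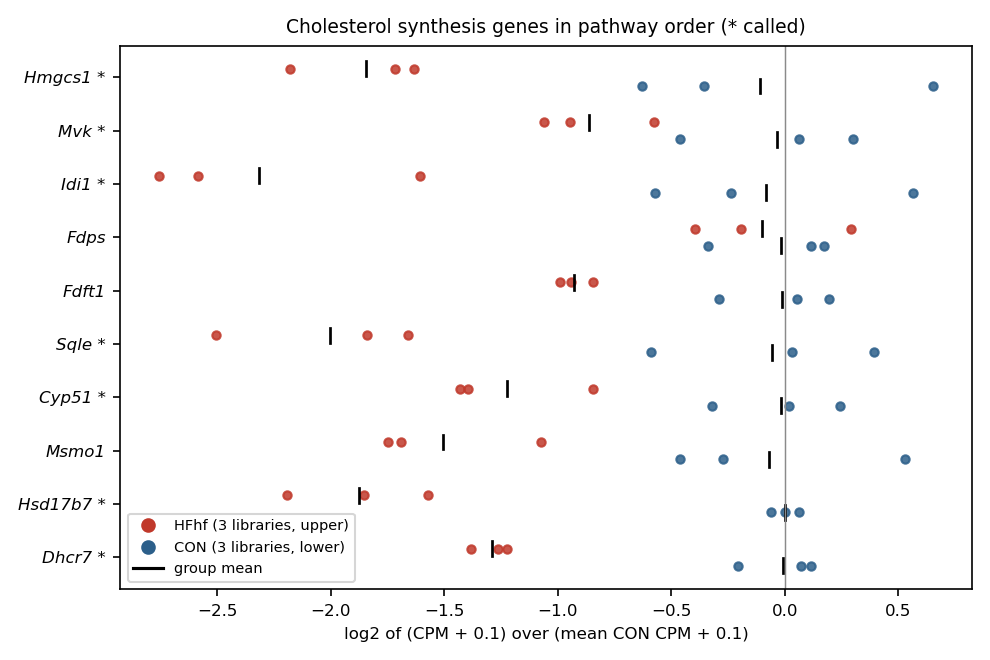
Level of the 10 genes of cholesterol synthesis named in the text, in pathway order, in each of the 6 female ZT4 livers, as log2 of (CPM + 0.1) over the CON mean (+ 0.1); HFhf livers are drawn above CON livers, black bars are group means and an asterisk marks the 7 of these genes that were called. The HFhf points all lie left of the CON points for 9 of the 10 genes, and the groups overlap for Fdps.

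Around the pathway, fewer SREBP2 genes passed. Of 20 tested genes of sterol sensing, uptake and transfer, 1 fell and 0 rose, with a median of -0.28. The 1 was Stard4, which carries cholesterol between membranes, with 29.8, 39.2 and 26.9 CPM in HFhf livers, against 62.2, 63.8 and 50.0 CPM in CON livers (log2 fold change -0.88, adjusted p = 0.0211). Srebf2, which encodes SREBP2, had a log2 fold change of -0.27 and did not pass. None of 12 targets of the oxysterol receptor LXR was called by edgeR or by DESeq2 (3 higher and 1 lower at an unadjusted p under 0.05, median 0.18, or 0.03 without scaling). Of 24 genes of bile acid synthesis and transport, edgeR called 0 (6 lower and 0 higher at an unadjusted p under 0.05) and DESeq2 called Acox2, a peroxisomal oxidase of the bile acid side chain, lower. Cyp7a1, the rate-limiting enzyme of that pathway, had 202.5, 72.5 and 112.8 CPM in HFhf livers, against 76.3, 124.1 and 269.2 CPM in CON livers, with the groups fully interleaved.

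Some genes of fatty acid oxidation and other PPARA targets rose in HFhf livers. Of 44 tested, 6 rose and 0 fell, 22 were higher and 3 lower at an unadjusted p under 0.05, 34 had a positive fold change and the median was 0.33, against 0.18 with 3 higher and 2 lower without scaling. Cpt1a, which admits long-chain fatty acids to mitochondria, had 333, 342.8 and 752.3 CPM in HFhf livers, against 141.6, 101 and 140.6 CPM in CON livers (log2 fold change 1.90, SE 0.36, adjusted p = 0.00280). Fgf21, a fasting hormone secreted by the liver, had 33.98, 22.73 and 135.2 CPM in HFhf livers, against 5.99, 6.75 and 9.60 CPM in CON livers (log2 fold change 3.11, SE 0.64, adjusted p = 0.00651). Vnn1, a pantetheinase, had 20.6, 23.8 and 45.8 CPM in HFhf livers, against 4.49, 8.80 and 12.1 CPM in CON livers (log2 fold change 1.84, adjusted p = 0.00411). The groups did not overlap in any of these 3 genes, and HFhf liver 3 was the highest of the 6 in each. Without HFhf liver 3 the log2 fold change of Cpt1a was 1.40 (adjusted p = 0.0708) and that of Fgf21 1.93 (adjusted p = 0.218). Without CON liver 1 that of Fgf21 was 2.96 (adjusted p = 0.0653).

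Creb3l3, a liver transcription factor that drives Fgf21, had 411.6, 354.2 and 516.7 CPM in HFhf livers, against 299.5, 277.5 and 327.1 CPM in CON livers (log2 fold change 0.50, adjusted p = 0.0267). The mitochondrial enzymes Eci1, an enoyl-CoA isomerase, and Acadvl, the very-long-chain dehydrogenase, rose by 0.94 and 0.34 on the log2 scale (adjusted p = 0.0424 and 0.0439), and each lost its call when any of the 6 livers was left out. Ppara itself had a log2 fold change of 0.56 (adjusted p = 0.394). Not every member followed: the peroxisomal enzymes Crot, a carnitine octanoyltransferase, and Ehhadh, the bifunctional enzyme, had log2 fold changes of -1.44 and -0.62 and did not pass in edgeR's test, while DESeq2 called Crot lower. The list's count of rises was 3 without HFhf liver 1, 0 without HFhf liver 3, 1 without CON liver 1, 3 without CON liver 2 and 10 under DESeq2, which called 1 lower.

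Another group with calls in 1 direction was the unfolded protein response, the programme by which cells enlarge the folding and disposal capacity of the ER, with the ATF4 genes of amino acid stress. Of 36 genes tested, 3 rose and 0 fell, 33 had a positive fold change, and the median was 0.46 (0.31 without scaling, with 1 call). All 3 work in the ER: Derl3 and Herpud1 in the removal of misfolded proteins and Dnajb11 as a partner of the chaperone BiP. Promoter windows were read from RefSeq (build GRCr8, 250 bases before to 50 after each start) and searched on both strands for the ER stress response element in its longer form, CCAAT and CCACG with 9 free bases between them, and its shorter form, ATTGG and CCACG with 1 free base between them. All 3 called genes hold 1 or the other, so their windows are printed 5′ to 3′ on the gene's strand with the match in capitals; the match begins 154 bases before the start in Derl3 (chr20:12766416-12766715, minus strand, the longer form read on the opposite strand), 124 before it in Herpud1 (chr19:10614658-10614957, minus strand, shorter form) and 10 before it in Dnajb11 (chr11:91672751-91673050, minus strand, shorter form).
Derl3: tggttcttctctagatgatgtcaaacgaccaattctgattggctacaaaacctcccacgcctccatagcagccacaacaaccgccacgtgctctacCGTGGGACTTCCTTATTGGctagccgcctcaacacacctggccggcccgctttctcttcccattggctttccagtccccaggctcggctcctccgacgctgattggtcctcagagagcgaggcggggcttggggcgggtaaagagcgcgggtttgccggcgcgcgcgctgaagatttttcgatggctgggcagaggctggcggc
Herpud1: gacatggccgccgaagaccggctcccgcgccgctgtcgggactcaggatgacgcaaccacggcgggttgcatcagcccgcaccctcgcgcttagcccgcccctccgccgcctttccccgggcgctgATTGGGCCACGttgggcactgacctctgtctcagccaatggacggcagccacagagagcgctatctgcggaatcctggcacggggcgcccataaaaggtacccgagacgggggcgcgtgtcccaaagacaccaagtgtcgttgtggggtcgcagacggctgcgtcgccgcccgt
Dnajb11: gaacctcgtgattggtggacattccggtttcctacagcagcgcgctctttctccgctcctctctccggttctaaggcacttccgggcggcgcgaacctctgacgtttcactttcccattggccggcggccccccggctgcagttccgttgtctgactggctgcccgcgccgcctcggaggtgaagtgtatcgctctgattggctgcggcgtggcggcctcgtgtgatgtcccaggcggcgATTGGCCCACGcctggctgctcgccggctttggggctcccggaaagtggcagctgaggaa
The longer form was found in 8 of the 29 members of this list that have a window (27.6%), against 16 of the 8961 tested genes with a window (0.179%) and 22 of all 33469 windows (0.0657%). The shorter form was found in 3 of the 29 (10.3%), against 9 of the 8961 (0.1%) and 17 of the 33469 (0.0508%), and no window of the list holds both forms. Most members that hold a form were not called: Calr, Canx, Creld2, Dnajc3, Hsp90b1, Hspa5 and Xbp1 hold the longer form and Hyou1 the shorter. The element is by name one of this response, so its shares describe the list and say nothing of the diet. A match is a stretch of letters and was not tested for function here. The sterol element TCACNCCAC was found in 0 of the 16 windows of cholesterol genes, against 1.09% of tested genes and 1.12% of all windows, which says only that these letters do not stand in those windows.

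Derl3 had 8.68, 2.80 and 3.26 CPM in HFhf livers, against 0.877, 1.47 and 1.12 CPM in CON livers (log2 fold change 2.11, SE 0.43, adjusted p = 0.00556). Herpud1 had 182.5, 190.6 and 295.7 CPM in HFhf livers, against 130.9, 136.2 and 116.1 CPM in CON livers (log2 fold change 0.80, adjusted p = 0.0236). Dnajb11 had 129.6, 75.7 and 71.01 CPM in HFhf livers, against 72.8, 54.7 and 51.2 CPM in CON livers (log2 fold change 0.63, adjusted p = 0.0448), and was not called with the run of title numbers as a covariate. The groups were apart for Derl3 and Herpud1 and overlapped for Dnajb11, where HFhf liver 3 lay below CON liver 1. HFhf liver 1 stood above the other 5 livers for several ER chaperones. Hyou1 had 520.6, 214.3 and 247.4 CPM in HFhf livers, against 282.5, 190.3 and 165 CPM in CON livers, and Sdf2l1 had 62.2, 18.5 and 18.1 CPM in HFhf livers, against 16.1, 22.6 and 13.6 CPM in CON livers; neither passed, and the groups overlapped in both. Without HFhf liver 1 the list's median was 0.21 with 1 call, Derl3 stood at 1.39 (adjusted p = 0.231) and Dnajb11 at 0.30 (adjusted p = 0.666). Without HFhf liver 3 Herpud1 stood at 0.54 (adjusted p = 0.312). The list also had 1 call without CON liver 1, 2 or 3, and Derl3 had an adjusted p of 0.0645 without CON liver 1. The stress factors Atf4 (log2 fold change 0.13), Ddit3 (0.41) and Xbp1 (0.61) did not pass, nor did Asns, the asparagine synthetase that ATF4 induces (1.60, adjusted p = 0.118).

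**Figure D3:**
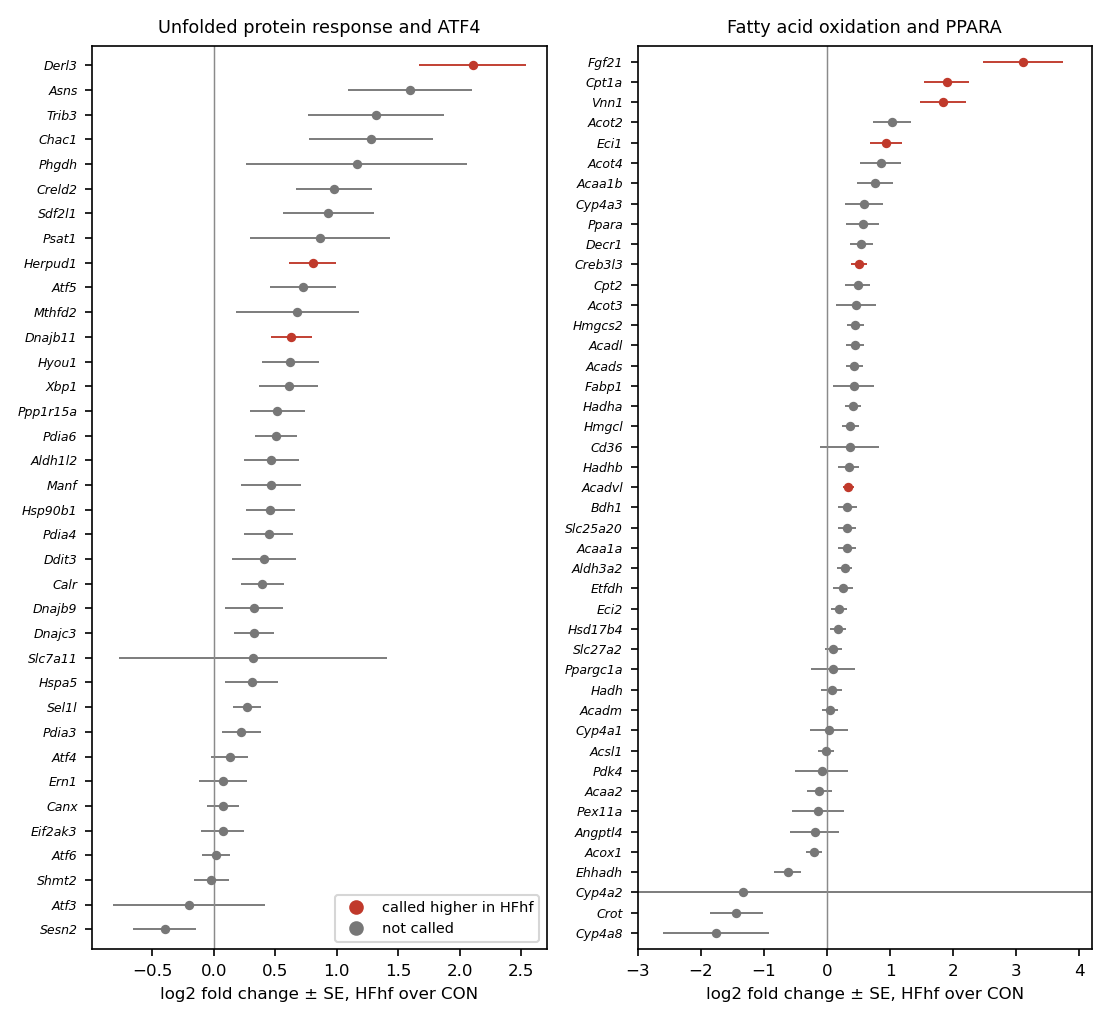
Fitted log2 fold change (HFhf over CON, female livers at ZT4) with its SE for 36 genes of the unfolded protein response and ATF4 list and 44 genes of fatty acid oxidation and PPARA targets, with called genes in red; the SE bar of Cyp4a2 runs past the axis. Of the first list 33 points lie above 0 and of the second 34, with Derl3 at 2.11 and Fgf21 at 3.11 as the furthest called points.

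Among 25 genes of fat synthesis, 2 rose and 0 fell, with 3 higher and 3 lower at an unadjusted p under 0.05 and a median of 0.14 (-0.01 without scaling); DESeq2 called 3 higher and 0 lower. Elovl2, which elongates polyunsaturated fatty acids, had 176.5, 190.9 and 293.1 CPM in HFhf livers, against 78.6, 59.9 and 75.2 CPM in CON livers (log2 fold change 1.63, adjusted p = 0.0263). Dgat2, which makes triglyceride, had 1130, 1520 and 1553 CPM in HFhf livers, against 911, 822.7 and 926.6 CPM in CON livers (log2 fold change 0.66, adjusted p = 0.0406). Both genes had every HFhf liver above every CON liver. Scd2, a fatty acid desaturase, had 410.1, 1178 and 192.5 CPM in HFhf livers, against 92.0, 121 and 20.1 CPM in CON livers. The groups were apart, and its log2 fold change of 2.93 did not pass in edgeR's test (adjusted p = 0.122) but was called higher by DESeq2 (adjusted p = 0.0187) and is listed as higher in the authors' deposited table (adjusted p = 0.0162). Fasn, the fatty acid synthase, had 1294, 3333 and 2597 CPM in HFhf livers, against 3336, 2458 and 3170 CPM in CON livers, and the groups overlapped.

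Among 26 genes of lipid droplets and lipoproteins, 1 rose and 0 fell, with a median of 0.22 (0.07 with 0 calls without scaling). The 1 was Tm6sf2, which lipidates very-low-density lipoprotein, with 49.2, 61.4 and 77.3 CPM in HFhf livers, against 41.9, 32.5 and 43.1 CPM in CON livers (log2 fold change 0.68, adjusted p = 0.0351). Plin2, a coat protein of lipid droplets, had a log2 fold change of 0.68 (adjusted p = 0.330). None of 26 genes of fructose and glucose use was called by edgeR or by DESeq2 (2 higher and 0 lower at an unadjusted p under 0.05, median 0.17, or 0.02 without scaling). Khk, the kinase that starts fructose breakdown, had 189.5, 246.9 and 239.3 CPM in HFhf livers, against 216, 171.9 and 255.3 CPM in CON livers. The groups overlapped.

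Some enzymes that break down amino acids were lower in HFhf livers. Of 34 genes of gluconeogenesis and amino acid use, 5 fell and 1 rose, with a median of -0.36. Aass, which starts lysine breakdown, had 139.3, 183.6 and 112.1 CPM in HFhf livers, against 334.3, 262.7 and 403.1 CPM in CON livers (log2 fold change -1.20, adjusted p = 0.0251). Gls2, the liver glutaminase, had 110.5, 154.4 and 138.4 CPM in HFhf livers, against 268.9, 166.2 and 265 CPM in CON livers (log2 fold change -0.80, adjusted p = 0.0351). Hpd, of tyrosine breakdown, had 1802, 1714 and 916.1 CPM in HFhf livers, against 2582, 2034 and 2543 CPM in CON livers (log2 fold change -0.69, adjusted p = 0.0406). No HFhf liver reached a CON liver in these 3 genes, and the gap was narrow for Gls2 at CON liver 2. Ddc, the aromatic amino acid decarboxylase, and Prodh, the proline dehydrogenase, fell by 0.75 and 1.01 on the log2 scale, both with an adjusted p of 0.0402. The count of falls was 0 without HFhf liver 3, without CON liver 1 or without CON liver 3, 1 without HFhf liver 1, and 3 without HFhf liver 2.

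The 1 rise of that list was Pc, the pyruvate carboxylase that feeds both glucose output and the citric acid cycle, with 648.8, 707.3 and 930.2 CPM in HFhf livers, against 522, 526.3 and 515.1 CPM in CON livers (log2 fold change 0.55, adjusted p = 0.0406). Pck1, which commits carbon to glucose, had 288, 986.5 and 907.4 CPM in HFhf livers, against 1263, 291.4 and 2354 CPM in CON livers, so that both groups spanned a wide range and overlapped. Of 22 genes of one-carbon, methionine and choline metabolism, 1 fell and 0 rose, 20 had a negative fold change and the median was -0.26. The 1 was Gnmt, which uses up S-adenosylmethionine, with 40.7, 44.9 and 48.3 CPM in HFhf livers, against 124.2, 56.3 and 98.4 CPM in CON livers (log2 fold change -1.06, adjusted p = 0.0406). Cth, which makes cysteine, had a log2 fold change of -1.20 (adjusted p = 0.0878) and Bhmt, which remethylates homocysteine, one of -1.31 (adjusted p = 0.132); HFhf lay below CON in both without overlap, and DESeq2 called Cth lower.

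Some glutathione transferases, which couple glutathione to foreign compounds, were lower in HFhf livers. Of 39 genes of glutathione and other conjugation under the factor NRF2, 4 fell and 0 rose, all 4 of them transferases, and the median of the list was -0.14. Gstm2 had 40.9, 41.3 and 27.9 CPM in HFhf livers, against 259.4, 152.8 and 167.6 CPM in CON livers (log2 fold change -2.40, SE 0.42, adjusted p = 0.00228). Gstm7 had 20.6, 18.4 and 16.5 CPM in HFhf livers, against 61.5, 48.5 and 46.4 CPM in CON livers (log2 fold change -1.50, adjusted p = 0.00222). Gsta3 had 16.5, 14.2 and 16.6 CPM in HFhf livers, against 64.9, 61.2 and 68.1 CPM in CON livers (log2 fold change -2.04, adjusted p = 0.0258). The groups lay far apart in all 3, and Gstm2 and Gstm7 were called under all 15 alternatives. Gsta3 was called under 9 of the 15 and lost its call whichever HFhf or CON liver was left out. Its log2 fold change in those fits lay between -2.08 and -1.97. Mgst3, a microsomal transferase, fell by 0.80 on the log2 scale (adjusted p = 0.0252). The count for the list was 2 without HFhf liver 1, HFhf liver 3, CON liver 1 or CON liver 2. These genes belong to families of close copies, so reads may have been assigned to a neighbour of the family.

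Other drug metabolism did not pass gene by gene. Of 45 phase 1 genes, edgeR called 0 (2 higher and 9 lower at an unadjusted p under 0.05, median -0.24) and DESeq2 called 1 higher and 2 lower, Fmo1 and Cyp2b2. Fmo1, a flavin monooxygenase, had 14.5, 10.5 and 16.8 CPM in HFhf livers, against 58, 58.4 and 67.6 CPM in CON livers (log2 fold change -2.13, adjusted p = 0.0531). Cyp2b2, the barbiturate-inducible cytochrome P450, had 0.126, 2.45 and 1.305 CPM in HFhf livers, against 4.08, 26.2 and 8.53 CPM in CON livers (log2 fold change -3.42, adjusted p = 0.105). The HFhf values were below every CON value in both genes. Of 21 glucuronosyl- and sulfotransferase genes, edgeR called 0 (1 higher and 5 lower at an unadjusted p under 0.05, median -0.32) and DESeq2 called 1 higher and 2 lower.

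Among 19 clock genes, 1 rose and 1 fell, with a median of -0.17, and DESeq2 called 2 higher and 1 lower. Nr1d1, which encodes the repressor REV-ERB-alpha, had 73, 73.2 and 128.7 CPM in HFhf livers, against 20.8, 25.4 and 19.8 CPM in CON livers (log2 fold change 2.06, SE 0.54, adjusted p = 0.0420). Cry1, a repressor of the clock's other limb, had 4.41, 8.04 and 2.48 CPM in HFhf livers, against 13.8, 9.03 and 10.4 CPM in CON livers (log2 fold change -1.20, adjusted p = 0.0439). Dbp, an output factor of the clock, had 12.7, 13.8 and 73.2 CPM in HFhf livers, against 3.61, 3.87 and 3.54 CPM in CON livers (log2 fold change 3.19, adjusted p = 0.101 in edgeR's test). DESeq2 called Dbp higher (adjusted p = 0.0134), as does the authors' deposited table (adjusted p = 0.0225). The CON livers lay close together in Nr1d1 and Dbp, and HFhf liver 3 was the highest of the 6 in both and the lowest in Cry1. The call of Nr1d1 was lost when any 1 of the 6 livers was left out, with adjusted p between 0.0515 and 0.237. Arntl, the activator BMAL1 that Nr1d1 represses, had 44.05, 50.52 and 24.1 CPM in HFhf livers, against 56, 52.2 and 57.9 CPM in CON livers, with a log2 fold change of -0.49 (adjusted p = 0.8287).

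Of 31 genes of sex-biased expression and growth hormone signalling, 3 fell and 0 rose, and the median was 0. DESeq2 called 4 lower and 1 higher. The 1 higher was Cyp2a2, a cytochrome P450 that the authors' deposited table also lists as higher (log2 fold change 1.785). Esr1, the oestrogen receptor alpha, had 11.1, 8.39 and 15.7 CPM in HFhf livers, against 50.5, 38.95 and 46.3 CPM in CON livers (log2 fold change -1.94, SE 0.29, adjusted p = 0.000166). The highest HFhf liver was below the lowest CON liver by a wide margin, and Esr1 was called under all 15 alternatives with an adjusted p of at most 0.00372. Hao2, a hydroxyacid oxidase, had 10.4, 15.6 and 6.01 CPM in HFhf livers, against 51.7, 32.7 and 27.1 CPM in CON livers (log2 fold change -1.82, adjusted p = 0.00411). Igfals, which holds IGF1 in the circulation, had 233.8, 202.1 and 226.4 CPM in HFhf livers, against 368, 291.9 and 300.7 CPM in CON livers (log2 fold change -0.54, adjusted p = 0.0296). Igf1 itself had 470.8, 376.9 and 368.9 CPM in HFhf livers, against 605, 593.8 and 490.1 CPM in CON livers, and did not pass in edgeR's test (log2 fold change -0.47, adjusted p = 0.0676), while DESeq2 called it lower. Cyp2c12, the female-specific steroid hydroxylase of rat liver, had a log2 fold change of 0.02.

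Of 24 genes of insulin and glucocorticoid signalling, 1 fell and 0 rose. It was Hsd11b1, which regenerates active glucocorticoid inside cells, with 0.881, 0.874 and 6.66 CPM in HFhf livers, against 28.7, 9.91 and 26.7 CPM in CON livers (log2 fold change -2.91, adjusted p = 0.0351). HFhf liver 3 and CON liver 2 came nearest to each other without meeting. Of 24 genes of the acute phase and iron, 1 rose: Itih4, a plasma protein of the inter-alpha-inhibitor family, with 12100, 10710 and 14960 CPM in HFhf livers, against 7692, 8528 and 8304 CPM in CON livers (log2 fold change 0.62, adjusted p = 0.0463). The other pathway lists gave no call by edgeR or by DESeq2. At an unadjusted p under 0.05 they held 1 higher of 20 genes of NF-kappaB inflammation, 0 of 30 interferon genes, 2 lower of 26 cell division genes, 1 lower of 21 retinoid and thyroid genes and 4 higher of 31 oxidative phosphorylation genes. Of the last, 27 had a positive fold change (median 0.14), which without scaling became 15 (median -0.01).

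The markers of other cell types are given as summed CPM. Macrophage markers summed to 817 to 1000 CPM in HFhf livers and to 790 to 893 CPM in CON livers, with 0 of 20 called and 0 higher and 1 lower at an unadjusted p under 0.05. Stellate cell and fibrosis markers summed to 642 to 739 CPM in HFhf livers and to 727 to 785 CPM in CON livers (0 of 25 called, 0 higher and 2 lower unadjusted). Endothelial markers summed to 955 to 989 CPM in HFhf livers and to 932 to 966 CPM in CON livers (0 of 16 called, 0 higher and 1 lower unadjusted). DESeq2 called 0 in these 3 lists, and the 3 sums overlapped between the diets. Hepatocyte markers summed to 295000 to 375000 CPM in HFhf livers and to 244000 to 257000 CPM in CON livers without overlap, with 0 of 10 called by either tool, 2 higher and 1 lower unadjusted, and a median of 0.17 (0.01 without scaling).

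Skeletal muscle markers were near 0, summing to 0.629 to 2.35 CPM in HFhf livers and to 1.11 to 1.74 CPM in CON livers. Of 10 cholangiocyte markers 1 rose and 1 fell. Prom1, a membrane protein of progenitor and duct cells, had 78, 102.8 and 50.9 CPM in HFhf livers, against 12.3, 29.6 and 18.8 CPM in CON livers (log2 fold change 1.93, adjusted p = 0.0219). Epcam, an adhesion protein of duct epithelium, had 1.64, 3.15 and 3.52 CPM in HFhf livers, against 8.72, 5.22 and 4.77 CPM in CON livers (log2 fold change -1.19, adjusted p = 0.0495), and was not called with the run of title numbers as a covariate. The keratin Krt19 and the duct factor Sox9 had log2 fold changes of 0.01 and 0.37 and did not pass, so the markers of this cell type did not go together. Pancreas markers summed to 6.29 to 10.7 CPM in HFhf livers and to 61.2 to 145 CPM in CON livers, and nearly all of it in the CON livers was 1 gene. Cpa1, a digestive carboxypeptidase, had 9.19, 2.27 and 6.92 CPM in HFhf livers, against 137.4, 143.6 and 59.9 CPM in CON livers (log2 fold change -4.17, adjusted p = 0.116), while 4 listed markers were at 0 in all 6 livers. EdgeR and DESeq2 called 0 of the 4 pancreas, 11 lymphocyte and neutrophil, 10 muscle, 8 adipocyte and 6 red cell markers tested, and at an unadjusted p under 0.05 only Cpa1 was lower and 1 adipocyte marker higher. Of 24 genes that mark the pericentral or periportal zone of the lobule, 1 fell, the periportal Gls2, and the median was 0.00334. The part of these cells in the results above was not tested.

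The largest rises, taken among called genes of at least 1 CPM on average whose groups did not overlap, were mostly in genes of low level: 8 of the 10 had under 1 CPM in every CON liver. Abhd3, a hydrolase of phospholipids, had 45.3, 7.17 and 15.5 CPM in HFhf livers, against 0.0516, 0.117 and 0.225 CPM in CON livers (log2 fold change 7.34, SE 1.35, adjusted p = 0.00277). From the summed counts, over the TMM-scaled library sizes, its level was 189 times as high in HFhf livers, with an exact 95% interval of 91.1 to 472 that covers counting error only. The log2 fold change of Abhd3 was 4.25 (SE 1.41) in males at ZT4 and 2.86 (SE 1.27) in females at ZT16. In males at ZT16 it was 8.53 (SE 2.46), and none of these was called. Vsx1, a homeobox factor of the retina, had 1.64, 1.57 and 3.52 CPM in HFhf livers, against 0, 0 and 0.168 CPM in CON livers, the last from 3 reads (count ratio 41.5, interval 13.4 to 208). Dmrta1, a factor of the DMRT family, had 12.3, 23.1 and 28.5 CPM in HFhf livers, against 2.89, 1.35 and 1.63 CPM in CON livers (log2 fold change 3.42). Ncam2, a neural adhesion molecule, had 0.629, 0.524 and 5.22 CPM in HFhf livers, against 0.103, 0.176 and 0.112 CPM in CON livers; without HFhf liver 3 its log2 fold change of 3.97 became 2.08 (adjusted p = 0.443). The other 6 were Fgf21 (above), Rgs8, a brake on G-protein signals (3.34), Foxp2, a forkhead factor (3.10), Myrip, an adaptor between Rab proteins and myosin (2.96), Fut1, a fucosyltransferase (2.46), and Vdr, the vitamin D receptor (2.27).

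The largest fall was that of Mab21l3, a gene of the mab-21-like family, which had 0.126, 0.175 and 0.130 CPM in HFhf livers, 3 reads in all, against 21.9, 8.86 and 9.54 CPM in CON livers (log2 fold change -6.46, SE 0.93, adjusted p = 0.000166). The count ratio of CON over HFhf was 97.6, with an exact 95% interval of 33.3 to 475 for counting error. Dusp15, a dual-specificity phosphatase, had 0.126, 0.175 and 0 CPM in HFhf livers, 2 reads in all, against 5.42, 11.2 and 7.58 CPM in CON livers (adjusted p = 0.00375), a count ratio of CON over HFhf of 84.7 with an interval of 23.3 to 702. Both were called under all 15 alternatives. Stac3, known from calcium release in skeletal muscle, had 1.51, 4.89 and 6.13 CPM in HFhf livers, against 43.9, 81.2 and 46.7 CPM in CON livers (log2 fold change -3.79, adjusted p = 0.0231), with muscle markers near 0 in both groups. Slc6a6, the taurine transporter, had 6.04, 10.1 and 3.92 CPM in HFhf livers, against 33.3, 52.4 and 24.4 CPM in CON livers (log2 fold change -2.48, adjusted p = 0.0235). The other 6 were Hsd11b1, Gstm2, Idi1, Gsta3 and Sqle, all described above, and Ankrd33b (log2 fold change -2.22), which was not called with the run of title numbers as a covariate.

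**Figure D4:**
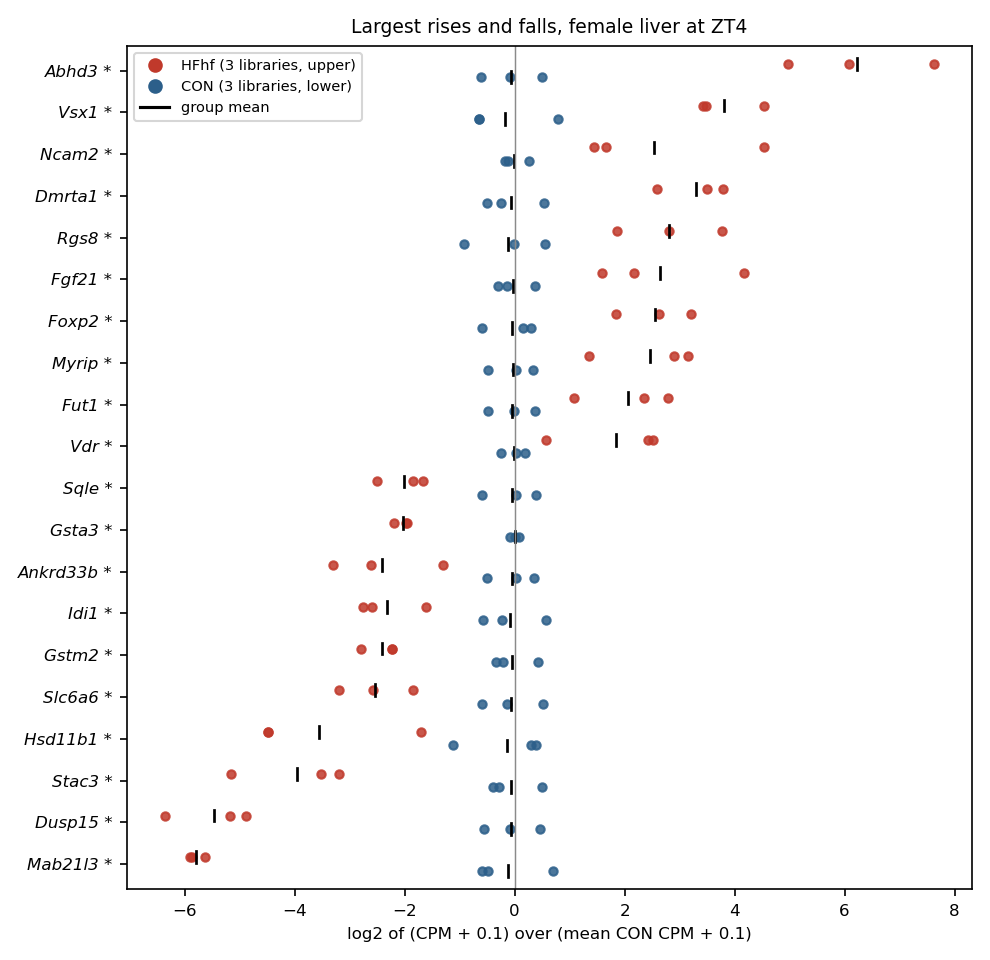
Level of the 10 largest rises and 10 largest falls in each of the 6 female ZT4 livers, as log2 of (CPM + 0.1) over the CON mean (+ 0.1); HFhf livers are drawn above CON livers and black bars are group means. Abhd3 (45.3, 7.17 and 15.5 CPM in HFhf livers) and Mab21l3 (0.126, 0.175 and 0.130 CPM in HFhf livers) lie furthest from the CON livers.

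Whether these effects were particular to females or to ZT4 was tested gene by gene, as the difference between 2 effects in the same fit. For females minus males at ZT4, edgeR called 0 of 11047 genes, with 699 (6.33%) at an unadjusted p under 0.05 and 6 called by DESeq2. For ZT4 minus ZT16 in females, edgeR called 0, with 484 (4.38%) at an unadjusted p under 0.05 and 3 called by DESeq2. These tests were coarser than the main one: the median 95% interval reached 0.58 to either side for the sex difference and 0.56 for the time difference, against 0.41 for the effect itself. By the same test and threshold, HFhf against CON gave 76 calls in males at ZT4 (0.688% of genes), 139 in females at ZT16 (1.26%) and 103 in males at ZT16 (0.932%).

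Of the 63 genes higher in females at ZT4, 54 were also positive in males at ZT4, where 51.8% of all genes were, and 10 were called higher there, as 0.29% of all genes were. In females at ZT16, 59 were positive and 17 were called higher, as 0.588% of all genes were. Of the 65 lower genes, 60 were negative in males at ZT4, where 48.1% of all genes were, and 9 were called lower, as 0.398% of all genes were. In females at ZT16, 60 were negative and 23 were called lower, as 0.67% of all genes were. In males at ZT16, 1 of the 63 and 5 of the 65 were called the same way, where 0.588% of all genes were called higher and 0.344% lower. There 1 of the 63, Nr1d1, was called the opposite way. The 63, chosen on the female ZT4 values, had a median log2 fold change of 0.82 in females at ZT4, 0.28 in males at ZT4, 0.45 in females at ZT16 and 0.24 in males at ZT16. The 65 had medians of -1.10, -0.43, -0.72 and -0.28 in the same order.

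Esr1 and Mab21l3 were among the 6 genes that DESeq2 called for the difference between the sexes. Esr1 in males at ZT4 had 24.4, 24.6 and 43.2 CPM on HFhf, against 30.7, 37.9 and 30.9 CPM on CON (log2 fold change -0.11, adjusted p = 0.949), with the groups overlapping. In females at ZT16 it had 38.9, 27.98, 33.4 and 22.1 CPM on HFhf, against 45.6, 39.9 and 56.1 CPM on CON (log2 fold change -0.62, adjusted p = 0.292). The difference of the effects between females and males at ZT4 was -1.83 (SE 0.40) with an adjusted p of 0.154 in edgeR's test and 0.0202 in DESeq2's. Mab21l3 had 11.2, 17.5 and 24.8 CPM in HFhf males at ZT4, against 36.1, 46.4 and 32.5 CPM in CON males, a log2 fold change of -1.11 (adjusted p = 0.302). In females at ZT16 it had 0.331, 0, 0.452 and 1.20 CPM on HFhf, against 8.05, 10.4 and 8.78 CPM on CON, a fall of the same kind that was also called (log2 fold change -4.27). Its difference between the sexes at ZT4 was -5.36 (SE 1.16), with an adjusted p of 0.154 in edgeR's test and 0.0202 in DESeq2's.

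Nr1d1 was higher in HFhf than in CON livers at ZT4 and had the opposite sign at ZT16. In females at ZT16 it had 3.44, 12.4, 10.6 and 8.53 CPM on HFhf, against 23.2, 32.3 and 34.97 CPM on CON (log2 fold change -1.80, adjusted p = 0.0823). In males it had 176, 153 and 129.1 CPM on HFhf, against 23.2, 20.3 and 64.5 CPM on CON at ZT4 (log2 fold change 2.08, adjusted p = 0.0554). The HFhf and CON values did not overlap in any of these, and the HFhf livers were the high ones at ZT4 and the low ones at ZT16. In males at ZT16 the log2 fold change was also negative and was called (-3.27, adjusted p = 0.00908 in edgeR's test). The difference of the female effects between ZT4 and ZT16 was 3.86 (SE 0.75), with an adjusted p of 0.0668 in edgeR's test and 0.00416 in DESeq2's. Dbp had a log2 fold change of 3.19 in females at ZT4, 4.27 in males at ZT4 and -1.54 in females at ZT16, of which the male value passed (adjusted p = 0.0385).

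**Figure D5:**
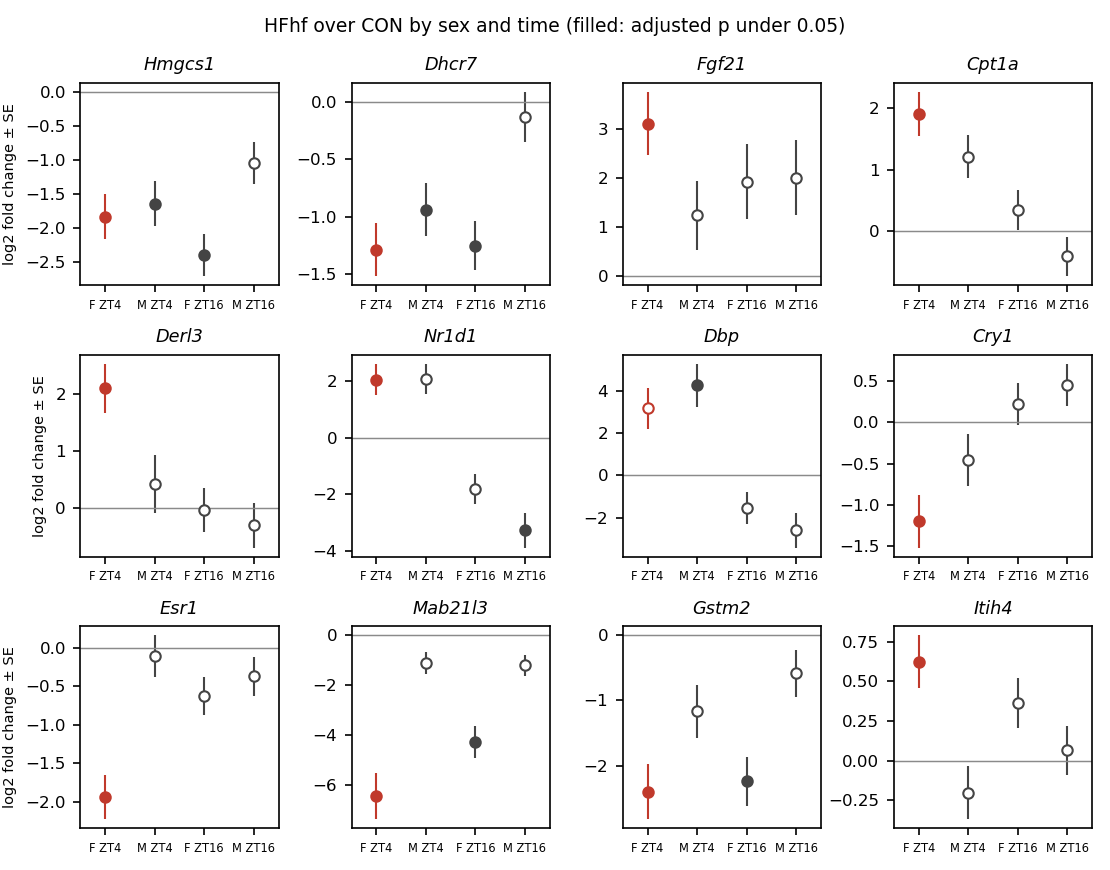
Fitted log2 fold change of HFhf over CON with its SE for 12 genes in females at ZT4, males at ZT4, females at ZT16 and males at ZT16, each gene on its own vertical scale; filled points have an adjusted p under 0.05. Nr1d1 is above 0 at ZT4 and below 0 at ZT16 (2.06 and -1.80 in females), Esr1 is far below 0 in females at ZT4 (-1.94), and Mab21l3 is lower in females than in males at ZT4 (-6.46 and -1.11).

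The 4 IUGR-HFhf females at ZT4 ate the same diet after birth and were compared with the same 3 CON livers, so the 2 comparisons share their controls and are given side by side only. Dhcr7 had a log2 fold change of -1.29 in HFhf and -1.29 in IUGR-HFhf, Hmgcs1 one of -1.83 and -1.65, Gstm2 one of -2.40 and -1.55, Cpt1a one of 1.90 and 1.40, and Herpud1 one of 0.80 and 0.98. All of these passed in both, where 0.679% of all genes passed in IUGR-HFhf. Other genes named above passed in HFhf and not in IUGR-HFhf. Among them, Derl3 had a log2 fold change of 2.11 in HFhf and 0.87 in IUGR-HFhf, Hsd17b7 one of -1.89 and -1.09, Vnn1 one of 1.84 and 1.23, and Gsta3 one of -2.04 and -1.63. Fgf21 had 33.98, 22.73 and 135.2 CPM in HFhf livers, against 6.99, 7.50, 12.6 and 27.7 CPM in IUGR-HFhf livers. Abhd3 had 45.3, 7.17 and 15.5 CPM in HFhf livers, against 0.280, 0, 0.242 and 0.418 CPM in IUGR-HFhf livers. The highest IUGR-HFhf liver overlapped the HFhf range for Fgf21, and none did for Abhd3. Tested directly, IUGR-HFhf over HFhf gave 2 calls (0.0181% of genes): Abhd3 was lower (log2 fold change -6.54, adjusted p = 0.0175) and Cpb1, a pancreatic carboxypeptidase, was higher (6.28, adjusted p = 0.0175).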

How the data were processed

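Liver RNA-seq counts of 56 rat libraries were used, with 16 groups of sex, time and diet taken from the labels. The deposited table holds raw counts per gene; the submitters' processing notes name the build rn6 and the tools STAR, featureCounts and DESeq2 without their settings, and the strand setting of the counting is not given in the sources used here. The authors' deposited table of the comparison gives log2 fold changes and adjusted p-values. Library preparation removed ribosomal RNA, per the labels' protocols, although the molecule label reads polyA RNA.

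All libraries entered 1 fit in edgeR 4.0.16 (R 4.3.3, limma 3.58.1) with TMM scaling, filterByExpr and a robust quasi-likelihood F test, which left 40 residual degrees of freedom. P-values are two-sided and Benjamini-Hochberg adjusted over 11047 of 17337 genes, and a gene is called below 0.05. CPM is a count over the library's counted reads times its TMM factor. A permutation test of 3 against 3 could not go below 0.1. On simulated counts for this comparison (10990 genes), 34% of genes changed 1.5-fold, 74% of those changed 2-fold and 92% of those changed 4-fold were recovered. Of 10790 unchanged genes, 5 were called. The counts were drawn with the spread that the fit itself estimated. Apart from the changed genes, HFhf and CON were given the same mean share of reads for each gene. Calls that arise from scaling were therefore not tested. Only genes of at least 1 CPM in CON were changed, so recovery at lower levels was not tested. DESeq2 1.42.0, other scalings and filters, thinned depth and fits without single libraries were alternatives. The comparison and the 34 gene lists (863 entries, of which 823 matched by symbol and 5 by synonym) were chosen with earlier results of these data known. Genes named were the 10 largest called rises and falls at a mean of at least 1 CPM with groups apart, the leading members of each list and its index genes. Some genes are not reported here.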

Additional observations from a re-analysis of the deposited data

How the results depend on the processing

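No paired analysis was possible because the title numbers of the libraries are not shared between HFhf and CON. Against 128 calls, DESeq2 gave 208, of which 128 were shared, and the fit without IUGR-RC libraries 208, of which 127 were shared. The fit with the run of title numbers as a covariate gave 140 calls, of which 115 were shared; Cyp51, Dnajb11, Epcam and Ankrd33b were among those not called in it. A fit without 4 libraries of the series with muscle transcripts or clock genes against their label gave 170 calls, of which 128 were shared. In it the log2 fold change of no called gene moved by more than 0.00551. These 4 libraries were kept under their labels in the main fit. Leaving out each of the 6 livers gave 32 to 105 calls. For the difference between females and males at ZT4, against 0 calls, DESeq2 gave 6 (Abhd8, Btg2, Clmn, Esr1, Mab21l3 and Ptk7), a fit of the groups compared alone gave 1, and leaving out each liver gave 0 to 1. For the difference between ZT4 and ZT16 in females, against 0 calls, DESeq2 gave 3, the fit without IUGR-RC libraries 4, and 3 each came from the groups compared alone, from leaving out 4 libraries with muscle transcripts or clock genes against their label, and from thinned libraries; leaving out each liver gave 0 to 2. No called gene changed sign under any of the 15 alternatives in which it was tested. Fitting the 2 groups alone gave 145 calls, of which 67 were among the 128. Abhd3, Hmgcs1, Cpt1a and Fgf21 were among those not called in that fit. Every HFhf liver was shallower than every CON liver, and thinning these 6 livers to the shallowest of them gave 88 calls, of which 84 were shared. The causes of these shifts were not tested.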

Other observations

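Several called genes outside the lists, chosen here after their values were seen, also changed. Junb, an immediate-early factor of the AP-1 family, had 105.8, 52.1 and 52.6 CPM in HFhf livers, against 15.2, 15.8 and 14.7 CPM in CON livers (log2 fold change 2.20, adjusted p = 0.00352 by edgeR's quasi-likelihood test). HFhf liver 1 was the highest, and without it Junb was not called (adjusted p = 0.0588). Its log2 fold change was -0.06 in males at ZT4 and 0.42 in females at ZT16, neither called, and the differences between these effects and that in females at ZT4 were not called. Aldh1l1, which oxidises formyl-tetrahydrofolate, had 206.7, 244.9 and 253.4 CPM in HFhf livers, against 454, 468.2 and 475.5 CPM in CON livers (log2 fold change -0.99, adjusted p = 0.00411). Rcan2, an inhibitor of calcineurin, had 5.79, 5.07 and 5.87 CPM in HFhf livers, against 21.4, 18.4 and 17.3 CPM in CON livers (log2 fold change -1.77, adjusted p = 0.00437), and was also lower in males at ZT4 (-1.71, adjusted p = 0.0115). The groups were apart in all 3 genes.

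Pycrl, of proline synthesis, had 33.2, 27.4 and 32.5 CPM in HFhf livers, against 19.7, 18.6 and 18.7 CPM in CON livers (log2 fold change 0.71, adjusted p = 0.00411). Uox, the urate oxidase, had 421.3, 552.6 and 452.3 CPM in HFhf livers, against 939.6, 606.8 and 971.3 CPM in CON livers (log2 fold change -0.82, adjusted p = 0.0258). Kmo, of tryptophan breakdown, had 104.8, 123.4 and 94.4 CPM in HFhf livers, against 225, 172.7 and 166.2 CPM in CON livers (log2 fold change -0.81, adjusted p = 0.0236). In each of these genes no HFhf liver overlapped a CON liver. The 12 genes called under all 15 alternatives were Vsx1 and Pycrl, both higher, and Adam15, Dhcr7, Gstm7, Tmprss2, Rcan2, Hsd17b7, Esr1, Gstm2, Dusp15 and Mab21l3, all lower. Marco, a scavenger receptor of liver macrophages, had 1.38, 6.29 and 0.653 CPM in HFhf livers, against 20.2, 9.27 and 5.78 CPM in CON livers; it was not called (log2 fold change -2.21, adjusted p = 0.169), while its log2 fold change of -4.34 in males at ZT4 was (adjusted p = 0.00284). Cpa1 had 7.54, 8.92, 15.2 and 9.30 CPM in HFhf females at ZT16, against 72.9, 208.7 and 75.4 CPM in CON females, and 0 in the HFhf and CON males at ZT4.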
